A study of Mus musculus with 9 samples.

Results

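Neutrophils and the myeloid cells that suppress T cells are known to accumulate in mice that carry 4T1 tumors, and 8 genes stand here for them. S100a8, S100a9, Ly6g, Csf3r, and Retnlg are genes of the neutrophil itself, Csf3 and Csf2 encode the growth factors that drive the making and survival of granulocytes, and Arg1 is an enzyme of suppressive myeloid cells. The genes were taken by name, when earlier results of these data were already known. Of the 8, 7 are among the 22609 genes listed in the count tables. Ly6g was not analysed here. The filter on low counts kept 6 of them, S100a8, S100a9, Csf3r, Retnlg, Csf3, and Arg1, and left out Csf2.

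The libraries came from tumors of 4T1 cells, a mammary carcinoma line of BALB/c mice that serves as a model of triple-negative breast cancer, grown orthotopically in hosts of that strain. The LFD group (3 libraries) ate a diet with 10% of its calories from fat and received the vehicle, 0.3% hydroxy propyl cellulose. The HFD group (3 libraries) ate a diet with 60% of its calories from fat and received the same vehicle. The HFD + EC359 group (3 libraries) ate the 60% diet and received EC359, a small-molecule inhibitor of the leukemia inhibitory factor receptor (LIFR), injected intraperitoneally at 5 mg/kg, 5 days a week. Each diet was started 6 weeks before 500000 cells were injected and was kept to the end of the experiment. No group received EC359 on the LFD. Tumor cells and host share the BALB/c background, so a transcript cannot be assigned to one or the other. In whole tumors, fewer cells of a type and less RNA per cell cannot be told apart.

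Neutrophils mature in the bone marrow under granulocyte colony-stimulating factor (G-CSF, encoded by Csf3), which acts through its receptor (Csf3r) on the granulocyte lineage. Mature neutrophils carry large amounts of S100A8 and S100A9, a pair of small calcium-binding proteins that join into calprotectin and act as danger signals when released. Neutrophils and immature myeloid cells of tumors are called myeloid-derived suppressor cells where they restrain T cells, and arginase 1 (Arg1) is known to do so by using up arginine. 4T1 cells are known to secrete G-CSF themselves.

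Library totals ran from 5085357 to 9751201 counts, and a count of 0 allows up to 3 counts, which is 0.308 to 0.59 CPM, for counting error alone. Levels are given as CPM, a gene's reads relative to the library total, with totals scaled by edgeR's TMM factors. A gene is said to have risen or fallen where its adjusted p was under 0.05 in edgeR's quasi-likelihood test over the 13366 tested genes. Krt8 and Krt18, keratins of simple and mammary epithelium, were at 405.1 to 611.2 CPM and 286.6 to 496.7 CPM, and Ptprc, the leukocyte common antigen, was at 55.4 to 128.2 CPM. Low-GC genes stood lower against high-GC genes in the LFD libraries (log2 -0.54 to -0.32) than in the HFD libraries (0.10 to 0.16) and the HFD + EC359 libraries (0.25 to 0.30), each relative to the mean of all libraries. Libraries of a group differed little, with a mean chi-square per gene of 1.36 to 3.10 between pairs, where counting noise gives 1. The series text gives 9 tumors, and the labels name no cage, batch, or animal number, so the p-values measure the spread between these libraries, which may be in part technical.

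The promoters of the neighbours S100a8 and S100a9 are shown because the genes encode the partners of one complex, are read from opposite strands of chromosome 3, and did not move alike. Each stretch covers the 250 bases before the annotated start in the mm9 reference, 5′ to 3′ on the strand of the gene, which is a C57BL/6J sequence and not that of the BALB/c hosts. The windows are chr3:90472743-90472992 on the plus strand for S100a8 and chr3:90499614-90499863 on the minus strand for S100a9. Matches to 2 motifs would stand in capitals, and neither window holds any.
S100a8: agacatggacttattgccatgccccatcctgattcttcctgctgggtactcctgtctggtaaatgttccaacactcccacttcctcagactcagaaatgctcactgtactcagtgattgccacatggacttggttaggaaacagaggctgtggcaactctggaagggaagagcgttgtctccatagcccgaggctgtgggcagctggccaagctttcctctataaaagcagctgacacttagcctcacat
S100a9: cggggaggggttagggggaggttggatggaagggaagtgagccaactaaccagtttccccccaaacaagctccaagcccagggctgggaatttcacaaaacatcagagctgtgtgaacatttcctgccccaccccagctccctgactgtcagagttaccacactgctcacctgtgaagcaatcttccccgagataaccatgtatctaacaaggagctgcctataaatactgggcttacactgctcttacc
The first was the C/EBP motif TTGCNNAA on either strand, the element of a family of transcription factors of the granulocyte lineage, which was present in 8.51% of the 22424 promoters of the same length. Retnlg held 1 match (TTCTGCAA) and Csf2 held 1 (TTGCCCAA), while S100a8, S100a9, Csf3r, and Arg1 held 0. The second was the STAT motif TTCNNNGAA, which the factors downstream of LIFR and of the G-CSF receptor recognize. It was present in 6.74% of the promoters and in 0 of these 6 windows. These letters are a description of the windows and do not show binding.

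The first comparison asked how the genes differed in tumors of mice on the HFD. S100a8 rose 1.91-fold and Csf3r 1.18-fold, while Csf3 fell 1.81-fold and Arg1 fell 1.14-fold. S100a9 (log2 fold change -0.08) and Retnlg (0.38) did not pass. That is 2 genes higher and 2 lower among 6 tested, where 51.8% of all tested genes passed, 26.0% higher and 25.8% lower. The groups did not overlap for 5 of the 6 genes, and for 57.1% of all genes. The median log2 fold change of the 6 genes was 0.08, beside 0.0071 for all genes.

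The second comparison asked what EC359 changed in mice on the HFD. S100a8 rose 1.63-fold, S100a9 1.27-fold, and Csf3r 1.15-fold in the HFD + EC359 group, and Arg1 fell 1.66-fold. Csf3 (log2 fold change -0.13) and Retnlg (-0.000386) did not pass. Here 3 of 6 genes were higher and 1 lower, against 26.6% of all genes, 12.7% higher and 13.9% lower. The groups did not overlap for 3 of the 6 genes and for 41.3% of all genes. The median of the 6 genes was 0.10, beside 0.0056 for all genes. Both comparisons use the same 3 HFD libraries, so their values are not independent.

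HFD + EC359 tumors were then set against LFD tumors, which differ by both diet and drug. S100a8 rose 3.10-fold, Csf3r 1.35-fold, and S100a9 by 0.26 on the log2 scale, whereas Csf3 fell 1.98-fold and Arg1 fell 1.90-fold. Retnlg, at 0.38, did not pass. These 3 higher and 2 lower genes compare with 58.3% of all genes, 29.2% higher and 29.1% lower. All 6 genes separated the groups without overlap, as did 62.9% of all genes, and their median log2 fold change was 0.32, beside 0.0107 for all genes. At the threshold of the study's methods, a fold change over 2 with an adjusted p under 0.01, 0 of the 6 genes passed for HFD against LFD (5.71% of all genes), 0 for HFD + EC359 against HFD (3.43%), and 1, S100a8, for HFD + EC359 against LFD (5.09%).

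**Figure D1:**
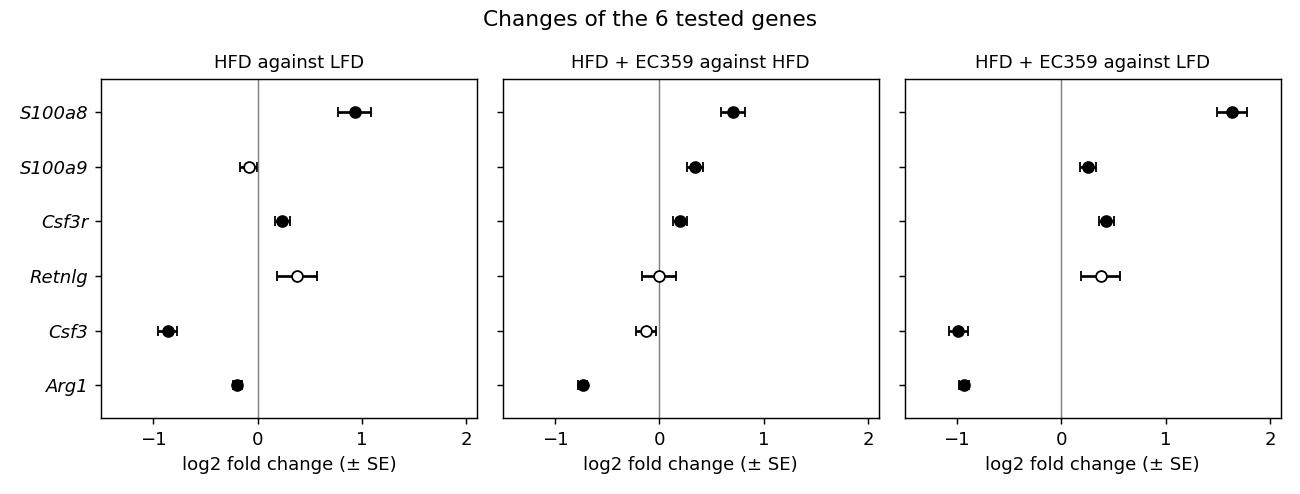
Log2 fold changes of the 6 tested genes in the 3 comparisons. Points are estimates of edgeR's quasi-likelihood fit with their standard errors, filled where the adjusted p was under 0.05 and open where it was not, and the grey line marks 0. S100a8 lies to the right of 0 in all 3 panels and Arg1 to the left, at -0.19, -0.73, and -0.93.

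S100a8 (mm9 chromosome 3, 90472993 to 90473956, plus strand, 3 exons) encodes the smaller subunit of calprotectin. It was at 5.11, 9.89, and 10.0 CPM in the LFD libraries, at 14.9, 15.98, and 18.1 CPM in the HFD libraries, and at 26.3, 25.7, and 27.5 CPM in the HFD + EC359 libraries. The 3 groups did not overlap in any pairing, and the lowest library, the first of the LFD group, stood apart from its group. The means were 8.35 ± 2.80, 16.3 ± 1.65, and 26.5 ± 0.900 CPM (SD, n = 3 each). The log2 fold change was 0.93 (SE 0.158, adjusted p = 9.06e-06, edgeR's quasi-likelihood test) for HFD against LFD and 0.70 (SE 0.114, adjusted p = 1.36e-05) for HFD + EC359 against HFD. S100a8 was thus higher in the group in which EC359 was added to the HFD than in either other group, with 1.63 (SE 0.141, adjusted p = 1.18e-11) against LFD. Without the first LFD library, the change from LFD to HFD was 0.71 (adjusted p = 8.17e-05). S100a8 has a GC content of 42.9%, lower than all but 12.3% of tested genes, and after removal of the libraries' GC and length trend its log2 fold changes were 0.64, 0.59, and 1.23.

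S100a9 (chromosome 3, 90496555 to 90499613, minus strand, 3 exons) encodes the partner subunit. Its levels were 38.1, 45.5, and 45.8 CPM in the LFD libraries, 41.7, 40.2, and 40.8 CPM in the HFD libraries, and 51.9, 51.3, and 52.4 CPM in the HFD + EC359 libraries. The LFD and HFD libraries overlapped, and every HFD + EC359 library lay above all others. The means were 43.1 ± 4.40, 40.9 ± 0.774, and 51.9 ± 0.525 CPM (SD, n = 3 each). The diet difference was -0.08 on the log2 scale (SE 0.0815, adjusted p = 0.403, edgeR) and that with EC359 0.34 (SE 0.074, adjusted p = 0.000596). With the GC and length trend removed, S100a9 fell by 0.28 on the HFD (adjusted p = 0.00313, edgeR). It then rose by 0.24 with EC359 (adjusted p = 0.00809), and its difference between HFD + EC359 and LFD, 0.26 (adjusted p = 0.00473) in the uncorrected fit, was -0.04 (adjusted p = 0.688). The direction of S100a9 against LFD therefore depends on this correction.

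**Figure D2:**
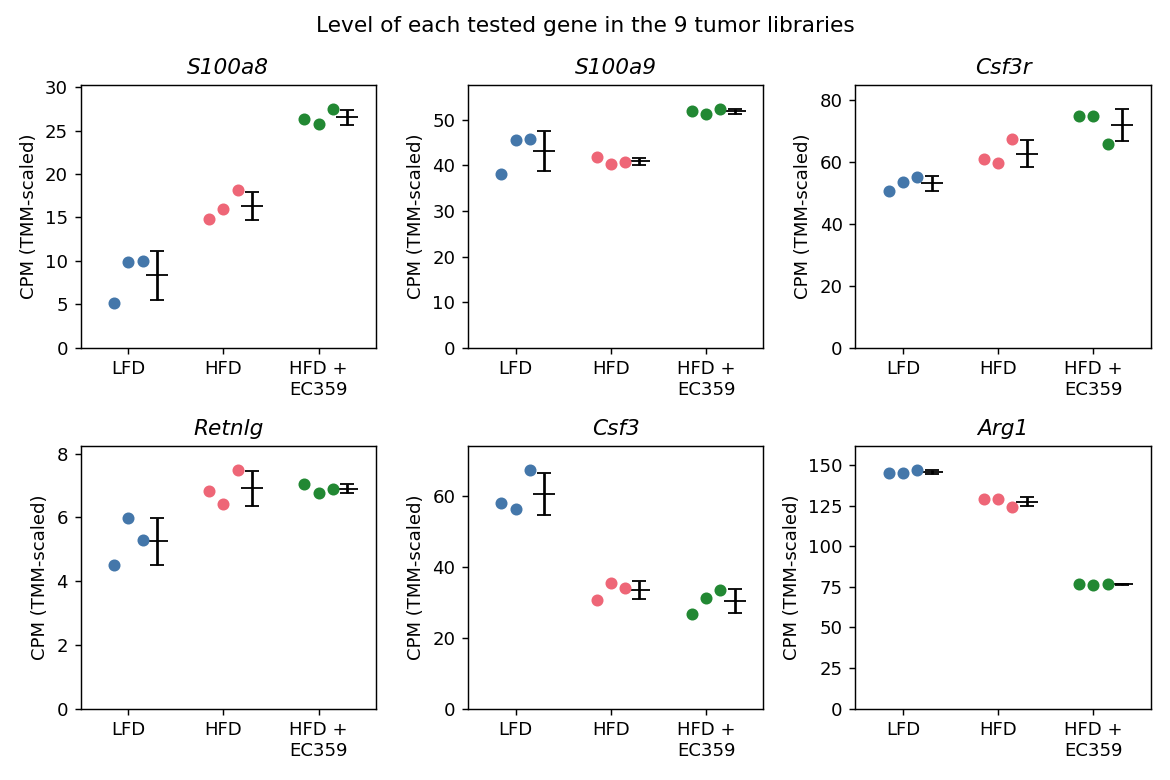
Level of each of the 6 tested genes in the 9 libraries, in CPM on TMM-scaled totals, with axes that start at 0. Each point is a library, and the bar beside each group gives its mean and SD (n = 3). S100a8 steps up from 5.11 to 10.0 CPM in the LFD group to 25.7 to 27.5 CPM in the HFD + EC359 group, and Arg1 steps down from about 145.9 to 76.7 CPM on average.

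The proportion of the partners within a library was taken per kilobase of annotated transcript, since the genes differ in length. The ratio of S100a8 to S100a9 averaged 0.237 ± 0.0603 for LFD, 0.497 ± 0.0550 for HFD, and 0.636 ± 0.0154 for HFD + EC359 tumors (SD, n = 3 each). The ranges, 0.167 to 0.273, 0.444 to 0.554, and 0.624 to 0.653, did not overlap. An exact permutation test of 3 libraries against 3 cannot give a two-sided p under 0.1, so none is given. S100a9 remained the more abundant of the pair in all 9 libraries.

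**Figure D3:**
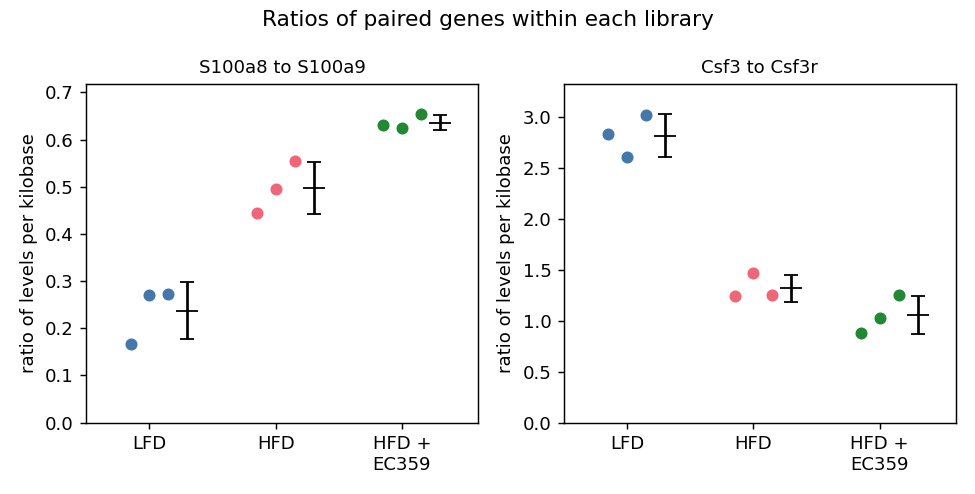
Ratios within each library of levels per kilobase, S100a8 to S100a9 on the left and Csf3 to Csf3r on the right, on axes that start at 0. Points are libraries, and the bars give the mean and SD of a group (n = 3). The ratio of the S100 partners is lowest in the LFD group (0.167 to 0.273), and that of ligand to receptor is highest there (2.60 to 3.02).

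Csf3r (chromosome 4, 125701903 to 125721684, plus strand, 17 exons) encodes the G-CSF receptor, which neutrophils and their precursors carry. It was at 50.5, 53.5, and 55.2 CPM in the LFD libraries, at 60.9, 59.6, and 67.5 CPM in the HFD libraries, and at 74.8, 74.9, and 65.9 CPM in the HFD + EC359 libraries. All HFD libraries lay above all LFD libraries, whereas the third HFD + EC359 library lay below the third HFD library. The log2 fold change was 0.24 for HFD against LFD (SE 0.073, adjusted p = 0.00742, edgeR's quasi-likelihood test), 0.20 for HFD + EC359 against HFD (SE 0.0648, adjusted p = 0.0229), and 0.43 for HFD + EC359 against LFD (SE 0.0703, adjusted p = 3.41e-06). The call on diet was lost without the third HFD library (0.18, adjusted p = 0.0686, edgeR). The call on EC359 was lost in DESeq2 (0.19, adjusted p = 0.112) and in edgeR without the first HFD library (0.18), the second HFD library (0.16), the first HFD + EC359 library (0.17), or the second HFD + EC359 library (0.16), with adjusted p from 0.099 to 0.124.

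Retnlg (chromosome 16, 48872721 to 48874611, plus strand, 4 exons) encodes resistin-like gamma, a secreted protein typical of mouse neutrophils. Its levels were low, 4.50, 5.97, and 5.29 CPM in the LFD libraries, 6.81, 6.42, and 7.50 CPM in the HFD libraries, and 7.03, 6.77, and 6.90 CPM in the HFD + EC359 libraries. The LFD libraries lay below all others, and the HFD and HFD + EC359 libraries overlapped. The difference of 0.38 between HFD and LFD (SE 0.191, adjusted p = 0.098, edgeR) did not pass, nor did that of 0.38 between HFD + EC359 and LFD (SE 0.186, adjusted p = 0.0822). Between HFD + EC359 and HFD the estimate was -0.000386 (SE 0.164, adjusted p = 0.9996, edgeR), and its sign changed with the filter and the scaling. Retnlg had at most 69 counts in a library, so differences that did not pass do not show that its level was unchanged.

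Csf3 (chromosome 11, 98562627 to 98564943, plus strand, 5 exons) encodes G-CSF, the main growth factor of the neutrophil lineage. It stood at 57.9, 56.4, and 67.3 CPM in the LFD libraries, at 30.5, 35.5, and 34.1 CPM in the HFD libraries, and at 26.7, 31.1, and 33.4 CPM in the HFD + EC359 libraries. Every LFD library lay above every library of the other groups, and the HFD and HFD + EC359 libraries overlapped. The means were 60.5 ± 5.94, 33.4 ± 2.57, and 30.4 ± 3.42 CPM (SD, n = 3 each). Csf3 fell by 0.86 on the log2 scale on the HFD (SE 0.0904, adjusted p = 1.51e-09, edgeR) and differed by -0.13 with EC359 (SE 0.0934, adjusted p = 0.351). Against LFD, it fell by 0.99 in the HFD + EC359 group (SE 0.0893, adjusted p = 3.26e-11, edgeR). Csf3 has a GC content of 56.6%, higher than that of 81.0% of tested genes, and after the GC and length correction it fell by 0.65 on the HFD and by 0.75 against LFD in the HFD + EC359 group.

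Csf2 (chromosome 11, 54060772 to 54063401, minus strand, 4 exons) encodes GM-CSF, the growth factor shared by granulocytes and macrophages. It had 1, 0, and 1 counts in the LFD libraries, 1, 2, and 2 in the HFD libraries, and 1, 2, and 0 in the HFD + EC359 libraries. All 9 values are at or under 3 counts, so no fold change is given, and a difference in Csf2 was not detectable at this depth.

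Ligand and receptor moved in opposite directions with diet. The ratio of Csf3 to Csf3r per kilobase averaged 2.82 ± 0.208 for LFD, 1.32 ± 0.132 for HFD, and 1.05 ± 0.187 for HFD + EC359 tumors (SD, n = 3 each). The LFD range of 2.60 to 3.02 lay above the HFD range of 1.24 to 1.47, which overlapped the HFD + EC359 range of 0.882 to 1.25.

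Arg1 (chromosome 10, 24635013 to 24647276, minus strand, 8 exons) encodes arginase 1, which turns arginine into ornithine and urea and is made by suppressive myeloid cells and by macrophages. It was at 145.1, 145.4, and 147.3 CPM in the LFD libraries, at 129.1, 129.2, and 124.6 CPM in the HFD libraries, and at 77.0, 76.3, and 76.8 CPM in the HFD + EC359 libraries. The groups did not overlap and their libraries lay close together, with the HFD + EC359 group far below the others. The means were 145.9 ± 1.24, 127.6 ± 2.64, and 76.7 ± 0.379 CPM (SD, n = 3 each). Arg1 fell by 0.19 on the log2 scale on the HFD (SE 0.0457, adjusted p = 0.000667, edgeR), by 0.73 with EC359 (SE 0.0468, adjusted p = 2.11e-14), and by 0.93 between LFD and HFD + EC359 (SE 0.0478, adjusted p = 5.10e-17). By p-value it ranked 69 of 13366 genes for HFD + EC359 against HFD and 60 for HFD + EC359 against LFD. The spread of Arg1 within the LFD group, a coefficient of variation of 0.849%, was smaller than the 3.48% that counting its reads alone would give. The same was so for 10 of the 18 group values of the 6 genes.

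Arg1 thus went down in the drug-treated group while S100a8, S100a9, and Csf3r went up. On the scale of CPM per kilobase, the order of the genes in the LFD group was Arg1 (98.8 ± 0.839, SD, n = 3), S100a9 (88.4 ± 9.02), Csf3 (44.4 ± 4.36), S100a8 (21.3 ± 7.15), Csf3r (15.7 ± 0.696), and Retnlg (8.64 ± 1.21). The libraries of S100a8 and Csf3r, and those of Arg1 and S100a9 in the HFD group (86.4 ± 1.79 and 83.8 ± 1.59), overlapped as neighbours in that order. In the HFD + EC359 group S100a9 led at 106.3 ± 1.08, followed by S100a8 at 67.6 ± 2.30, Arg1 at 51.9 ± 0.256, Csf3 at 22.3 ± 2.51, Csf3r at 21.3 ± 1.54, and Retnlg at 11.4 ± 0.218 on the same scale, with Csf3 and Csf3r overlapping. Over all 9 libraries S100a9 and Arg1 were more abundant per kilobase than 95.3% and 94.2% of tested genes, S100a8 than 86.5%, Csf3 than 78.7%, Csf3r than 63.6%, and Retnlg than 45.5%.

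The 6 genes were next set beside lists of other genes, which hold none of the 8. Of all tested genes, 51.8% passed with diet, 26.6% with EC359, and 58.3% between HFD + EC359 and LFD. These shares apply to every list count below, and a count near them is no result about its list. Of 25 tested genes of the neutrophil surface and cytosol, 4 rose and 12 fell on the HFD (median log2 fold change -0.20), and 10 rose and 3 fell with EC359 (median 0.21). Padi4, the enzyme of histone citrullination in neutrophil nets, fell by 0.30 and then rose by 0.43. The integrin gene Itgam, which encodes CD11b, differed by 0.07 with diet (not passed) and rose by 0.21 with EC359. Il1b fell by 0.25 on the HFD and differed by 0.08 with EC359 (not passed). Larger changes came from Stfa3 (-3.66 and 2.53), Asprv1 (-2.53 and 1.48), and BC100530 (-1.65 and 2.42), stefin genes and a protease, Asprv1, that is also known from epidermis. The stefin genes have near-identical copies among which the counting could split reads. Between HFD + EC359 and LFD, 8 of the 25 rose and 10 fell. Cxcr2, the receptor for neutrophil chemokines and chosen after its values were seen, was at 6.73 ± 2.14, 8.65 ± 0.115, and 11.7 ± 0.977 CPM in the 3 groups (SD, n = 3 each), and it rose with EC359 by 0.44 (adjusted p = 0.0297, edgeR) but did not pass with diet (0.33, adjusted p = 0.142).

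Granule genes were counted apart from these. Of 15 tested genes for granule proteins and the NADPH oxidase, 7 rose and 3 fell on the HFD (median 0.61), and 3 rose and 3 fell with EC359 (median 0.08). The granule genes Ngp (2.17), Ltf, which encodes lactoferrin (1.92), and Prtn3, a serine protease (1.49), rose on the HFD. With EC359 they fell by 0.84, 1.39, and 1.01, where S100a8, S100a9, and Csf3r rose. The counts of Ngp, Ltf, and Prtn3 were low, at 7 to 61, 13 to 83, and 1 to 26 per library. Lyz2, lysozyme of neutrophils and macrophages, rose by 0.84 and again by 0.35. Mmp9, a gelatinase, did not pass in either comparison (0.05 and -0.05), while Cyba, an oxidase subunit, fell by 0.59 on the HFD and differed by 0.09 with EC359 (not passed). Chi3l1 rose by 1.25 with EC359. Mpo, Elane, and Ctsg, which are made for the earliest granules, and Camp, made for later ones, were picked with their values known and were scarce, with at most 15, 7, 4, and 7 counts in any library. Against LFD, 7 granule genes rose and 2 fell in the HFD + EC359 group, among them Cybb (1.48), the catalytic oxidase subunit, and Lcn2 (1.46), an iron-trapping protein.

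**Figure D4:**
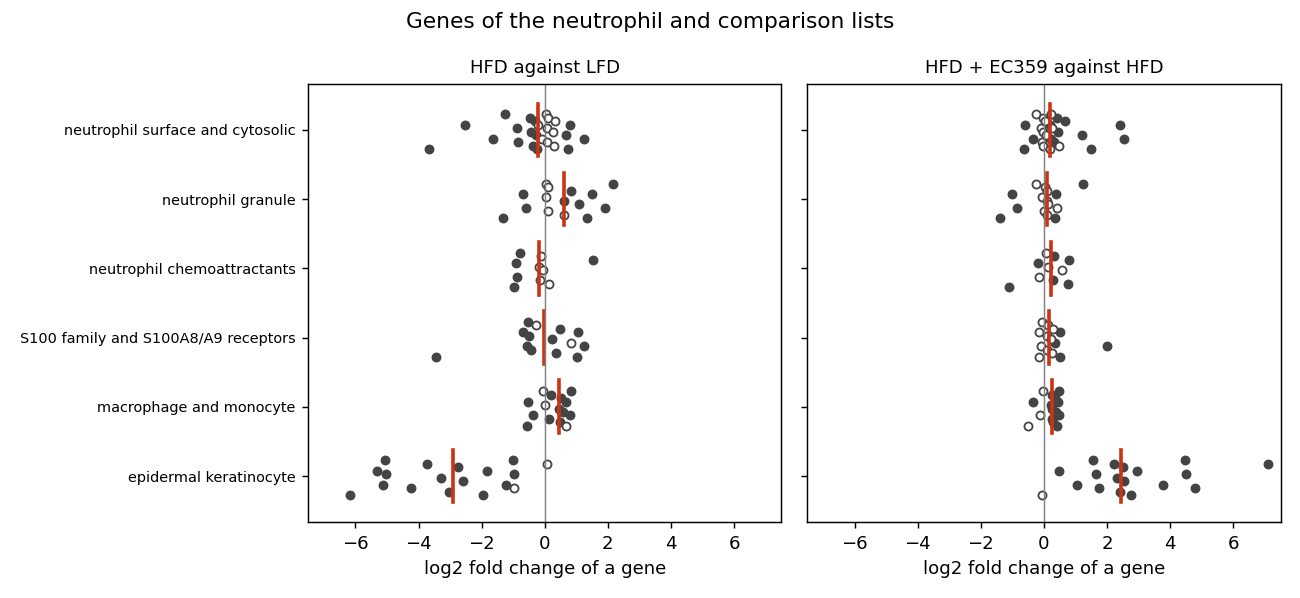
Log2 fold changes of the genes of 6 lists for HFD against LFD (left) and HFD + EC359 against HFD (right). Each point is a tested gene, filled where the adjusted p was under 0.05 and open where it was not, spread vertically for legibility, and the red line is the median of the list. Granule genes center on 0.61 and 0.08, surface and cytosolic neutrophil genes on -0.20 and 0.21, and keratinocyte genes on -2.89 and 2.45.

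Other genes of myeloid suppression, beside Arg1, were divided. Of 16 tested, 8 rose and 5 fell on the HFD (median 0.07), 2 rose and 7 fell with EC359 (median -0.12), and 6 rose and 9 fell against LFD. The shares of all tested genes that passed were 51.8%, 26.6%, and 58.3%, in the same order. The 2 suppression genes that rose with EC359 were Cd84 and Cd274, named after their values were seen. They rose by 0.31 and 0.53 on the HFD and by 0.39 and 0.32 with EC359. Cebpb, a transcription factor of emergency granulopoiesis, fell by 0.41 and by a further 0.22. Stat3, the factor downstream of LIFR, differed by -0.05 with diet (not passed) and fell by 0.13 with EC359, and the prostaglandin synthase gene Ptges fell by 0.29 and then differed by -0.02 (not passed). Hmox1 (heme oxygenase) and Vegfa (the angiogenic factor), both chosen after their values were seen, went from 126.8 ± 5.73 and 201.1 ± 8.18 CPM in the LFD group to 190.4 ± 1.56 and 268.3 ± 9.04 CPM on the HFD and to 102.7 ± 2.89 and 165.8 ± 4.08 CPM with EC359 (SD, n = 3 each).

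Over all tested genes, 51.8% passed with diet and 26.6% with EC359, and the arginine genes passed with diet at a similar share. Among 13 other tested genes of arginine metabolism, 3 rose and 4 fell on the HFD (median -0.09), and 0 rose and 2 fell with EC359 (median -0.11). The 2 were Nos3, the endothelial nitric oxide synthase (-0.50, named after its values were seen), and Odc1, which makes putrescine from ornithine and fell by 0.29 after falling by 0.10 with diet. The arginine transporter gene Slc7a1 and the spermidine synthase gene Srm fell by 0.19 and 0.25 on the HFD and did not pass with EC359 (-0.04 and -0.06). Against LFD, 2 of these genes rose and 6 fell.

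Of 9 other tested genes for colony-stimulating factors, their receptors, and related cytokines, 2 rose and 2 fell on the HFD, 3 rose and 1 fell with EC359, and 2 rose and 4 fell against LFD. The macrophage receptor gene Csf1r rose by 0.15 and 0.26, its ligand Csf1 fell by 0.12 and then rose by 0.11, and Csf2rb, the shared receptor chain for GM-CSF with the close copy Csf2rb2, differed by -0.08 (not passed) and then fell by 0.18. Of 10 chemoattractant genes and their IL-17 receptors, 1 rose and 4 fell on the HFD, 4 rose and 2 fell with EC359, and 3 rose and 3 fell against LFD. The stromal chemokine gene Cxcl12 rose by 1.54 and then fell by 1.10, Il17rc fell by 0.92 on the HFD and differed by 0.07 with EC359 (not passed), Il17ra differed by -0.06 (not passed) and fell by 0.17, and Cxcl16 differed by -0.11 (not passed) and rose by 0.28. Cxcl3 was lower by 1.04 in the HFD + EC359 group than in the LFD group. Cxcl2, Ccl4, and Cxcl5 were named after their values were seen. On the HFD, Cxcl2, Cxcl3, and Ccl4 fell by 0.79, 0.88, and 0.97, opposite to Cxcl12, and Cxcl5 did not pass (-0.16). With EC359, Cxcl2, Ccl4, and Cxcl5 rose by 0.76, 0.80, and 0.31, and Cxcl3 did not pass (-0.16).

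Relatives of the S100 genes were divided, with 6 of 14 genes of the family and its receptors higher and 6 lower on the HFD, 4 higher and 0 lower with EC359, and 6 higher and 4 lower against LFD. S100a6 fell by 0.51 and S100a10 and S100a11 rose by 0.34 and 1.06 on the HFD, while S100a14, a gene of stratified epithelium, fell by 3.44 and rose by 1.998 with EC359. The receptor genes Bsg and Cd36 rose by 0.25 and 1.25 on the HFD. Of the resistin family only Retnla passed the filter beside Retnlg, at 1 to 20 counts per library. Its log2 fold changes were 2.17 on the HFD (adjusted p = 0.000397, edgeR) and -0.30 with EC359 (not passed). Of 6 tested genes of the Ly6 family, to which Ly6g belongs, 2 rose and 2 fell on the HFD, 2 rose and 1 fell with EC359, and 0 rose and 2 fell against LFD. Ly6d (-3.12 and 2.65) and Ly6g6c (-1.75 and 1.80) moved most, and Ly6e rose by 0.24 and fell by 0.32. Granulocyte transcription factors were split 3 higher and 4 lower of 12 on the HFD, 4 and 5 with EC359, and 3 and 5 against LFD, with Runx1 at 0.30 and then -0.17 and Lef1 at 1.40 with diet.

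Markers of other cells differed between the same groups. The summed level of 19 listed epidermal keratinocyte genes was 2155 to 2386 CPM in the LFD libraries, 227.7 to 235 CPM in the HFD libraries, and 1149 to 1182 CPM in the HFD + EC359 libraries. Of 18 tested, 0 rose and 16 fell on the HFD (Krt14 -4.23, Krt16 -5.14, and Krt5 -3.05) and 17 rose and 0 fell with EC359 (Krt14 2.54). Inflamed keratinocytes are known to make S100A8 and S100A9. The order of the groups in this list was LFD over HFD + EC359 over HFD. Among the 6 genes, S100a8, Csf3r, and Retnlg had their lowest mean in the LFD group, though Retnlg did not pass. Csf3 and Arg1 had theirs in the HFD + EC359 group. For Csf3, the HFD and HFD + EC359 libraries overlapped and it did not pass with EC359 (adjusted p = 0.351, edgeR). S100a9 had its lowest mean in the HFD group, but its LFD and HFD libraries overlapped and it did not pass with diet (adjusted p = 0.403, edgeR). The part of keratinocyte RNA in these values was not tested.

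Macrophage and monocyte genes summed to 2262 to 2321 CPM in the LFD libraries, 2431 to 2467 CPM in the HFD libraries, and 2998 to 3031 CPM in the HFD + EC359 libraries. The step from LFD to HFD in this sum came with Lyz2. Without Lyz2, a choice made after seeing the data, the sums were 1946 to 1986, 1845 to 1875, and 2249 to 2294 CPM, with the HFD group lowest and the HFD + EC359 group highest. Of 15 tested, 9 rose and 3 fell on the HFD (median 0.47), and 11 rose and 1 fell with EC359 (median 0.27). Mrc1, the mannose receptor, fell by 0.36 and rose by 0.44. The lower HFD sum came with the genes that fell, Mrc1 (567.3 to 443.4 CPM), Cd163 (283.2 to 198.0), and Cd14 (96.0 to 65.0). Cd163 and Cd14 were named after their values were seen. Neutrophil granule genes summed to 1113 to 1135, 1458 to 1471, and 1639 to 1655 CPM, and without Lyz2, which the macrophage list also holds, to 793.5 to 799.6, 871.9 to 900.9, and 895.7 to 910.0 CPM, where the HFD and HFD + EC359 libraries overlapped. The largest term left in the granule sums was Mmp9, with means of 426, 441, and 426 CPM. Ngp (1.63, 7.53, and 4.22 CPM) and Ltf (2.64, 9.89, and 3.78 CPM) were small terms, so these sums do not show their course. Surface and cytosolic genes summed to 970.6 to 974.9, 746.2 to 759.7, and 894.5 to 930.3 CPM, in the order LFD, HFD, and HFD + EC359. Erythroid genes were highest in the HFD libraries (264.9 to 290.8 CPM, against 162.6 to 171.1 in LFD and 189.1 to 199.3 with EC359), and 5 of 6 rose on the HFD and 5 fell with EC359. Hba-a1 and Hba-a2 had identical values, as did Hbb-b1 and Hbb-b2, so the sums and counts hold each measurement again under its copy's name. Mast cell genes were lowest there (61.6 to 66.0 CPM, against 144.3 to 152.7 and 201.1 to 204.6), with 6 of 8 lower and 1 higher on the HFD and 6 higher with EC359. Lymphocyte genes were few (14.6 to 23.5 CPM over the 9 libraries, 5 tested, 1 higher and 1 lower in each of these comparisons), and adipocyte genes rose in 3 of 5 on the HFD, from 19.7 to 23.2 CPM in sum to 47.2 to 49.4 CPM, and 1 fell with EC359. The part of these cell types in the values of the 6 genes was not tested.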

How the data were processed

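According to the series text, RNA-seq was performed on 9 tumors, which the labels number 1 to 3 within each group and do not identify further. Per the file headers, the authors deposited expected counts of reverse-stranded read pairs per gene, made with featureCounts 1.5.0-p1 on an mm9 annotation with a minimum mapping quality of 2, pairs over several genes or positions being split into fractions. The submitters' processing notes name HISAT2 2.1.0, and the methods name TopHat2, HTSeq, and DESeq. No normalization was applied. Fractional values (1.19% to 3.55% of genes per library, of the 7 listed genes Retnlg and Csf3) were rounded to whole counts. No listed gene shares exons with another gene on its strand.

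Genes were filtered with filterByExpr (13366 of 22609 kept), scaled with TMM, and fitted in one quasi-likelihood model of 3 groups in edgeR 4.0.16 (R 4.3.3) with Benjamini-Hochberg adjustment. Groups came from the sample titles. Levels per kilobase divide CPM by the annotated length. Alternatives were DESeq2 1.42.0, RLE factors, library totals, 2 other filters, the study's threshold, 6 libraries alone, a replicate block, each library left out, thinning to 5085357 counts, and removal of the GC and length trend, with GC content from the mm9 genome. The 8 genes and the 16 lists were chosen with earlier results of these data known. From each list the text names genes by a rule: the 3 with the highest mean CPM and the 3 with the largest change past the study's threshold; likeness to a gene is the root mean square difference of centered log2 CPM (prior count 2). Not all genes that the rule names are printed, and genes picked with their values in view are marked so. Promoter windows of 6 genes were searched for motifs, and 1 further window is not reported here. The steps were tested on simulated data for HFD against LFD with 13366 genes, in which 25 of 50 planted 1.25-fold changes, 38 of 50 of 1.5-fold, 46 of 50 of 2-fold, and 49 of 50 of 3-fold were found and 10 unchanged genes were called.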

Additional observations from a re-analysis of the deposited data

How the results depend on the processing

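Of 324 combinations of the 18 gene results (6 genes in 3 comparisons) with an alternative other than the threshold, 310 kept direction and call, 6 lost a call, 2 gained one, and 6 changed sign. At the study's threshold, 0, 0, and 1 genes passed, in place of 4, 4, and 5 genes. The sign changes were those of Retnlg for HFD + EC359 against HFD, at 0.032 with library totals, 0.000445 with all genes of at least 1 count, 0.0026 with at least 10 counts in every library, and -0.050 to 0.056 with libraries left out in turn (above 0 without the second HFD + EC359 or the third HFD library), none of which passed, and of S100a9 for HFD + EC359 against LFD, at -0.039 with the GC and length trend removed. That correction also gave S100a9 a call for HFD against LFD (-0.28, adjusted p = 0.00313, edgeR). Library totals gave Retnlg a call for HFD + EC359 against LFD (0.45, adjusted p = 0.0379, edgeR). With libraries left out in turn, 3 to 4 genes passed for HFD against LFD, 3 to 4 for HFD + EC359 against HFD, and 5 in all 9 cases for HFD + EC359 against LFD. The losses were those of Csf3r, whose call for HFD + EC359 against HFD was also lost in DESeq2 (3 genes).

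Over all genes at an adjusted p under 0.05, DESeq2 called 2343 genes for HFD + EC359 against HFD and edgeR 3549. At the study's threshold, 763, 459, and 680 genes passed in the 3 comparisons as reported, and 356, 211, and 418 in fits under the filter of 10 counts per library. In the fit with the GC and length trend removed, 413 passed for HFD + EC359 against LFD.

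With a replicate block, 4, 4, and 5 genes passed. The labels number the libraries 1 to 3 in each group. Deviations of same-numbered libraries from their group means correlated at -0.0297 to 0.0170 over 9 pairs, and those of other pairs at -0.0235 to 0.0272. In 2 of 18 comparisons of a library with another group it matched best with its own number. No pairing by number was seen. Libraries of a group differed little, however, so this check could miss a shared batch.

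Depth limits Csf2 (at most 2 counts) and Retnlg (at most 69 counts). The spread between libraries rests on 3 per group.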

Other observations

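For each of the 6 tested genes, the genes with the most similar course over the 9 libraries were sought among tested genes other than these 6. Likeness was measured by the root mean square difference of log2 CPM, each gene centered on its mean. For S100a8 these were AI607873 (0.120), Lztfl1 (0.126), and Maml2 (0.147), where S100a8 itself had an SD of 0.789 over the libraries. For S100a9 they were Tfrc (0.0442), Gpr126 (0.0466), and Ide (0.0515), and for Csf3r they were Selenbp1 (0.0522), Sec61a2 (0.0573), and Ucp2 (0.0575). Retnlg lay closest to Zfp790 (0.0488), the ribosomal protein gene Rplp0 (0.0498), and Zfp871 (0.0516), Csf3 to Sac3d1 (0.109), Ppp1r3f (0.114), and Hspbp1 (0.116), and Arg1 to Fam65c (0.0806), Fhod3 (0.0961), and Gadd45g (0.0985). The 6 genes were left out of the candidates, so this search cannot show whether they resembled one another. The 9 libraries fall into 3 groups, and likeness was not tested.

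Some genes of the comparison lists moved further than the 6. Igj, the joining chain of secreted antibodies, was higher by 4.30 on the log2 scale on the HFD (adjusted p = 6.66e-09, edgeR's quasi-likelihood test) and lower by 2.65 with EC359 (adjusted p = 1.07e-07). The mast cell protease genes Tpsab1 (-2.14 and then 2.89), Tpsb2 (-1.88 and then 2.02), and Mcpt4 (-2.15 and then 2.55) had the opposite course. The adipocyte genes Fabp4 and Lpl rose on the HFD by 1.66 and 1.05, and with EC359 Lpl fell by 0.64 while Fabp4 differed by -0.04 (not passed). The hemoglobin gene Hba-a1 rose by 0.86 and fell by 0.61, with counts identical to those of Hba-a2 in these files.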
